A study of Mus musculus with 64 samples.

Results

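The immune infiltrate of the colon after 7 weeks of transfer colitis under anti-IL-12p40 was placed against the first 4 untreated collections of the same model. Its members were the 12604 barcodes of 1 surface protein library, of 131917 barcodes in 9 such libraries, taken by the library's label. The reference was the untreated week 0, week 1, week 2 and week 3 libraries, with 16910, 12769, 21229 and 12683 barcodes. All 5 groups were colon of SCID mice labelled as CD45RBhi transfer recipients, and each was 1 library from the pooled colons of 3 animals. The treated group alone received anti-IL-12p40, begun on day 10, which lies between the week 1 and the week 2 collections at the 7-day interval of this arm. The ages of the animals and the source of the transferred cells are not given in the sources used here. Cells were the EpCAM-/CD45+ sort of the lamina propria, and about 16000 were loaded per sample. The other 55 of the series' 64 samples were not analysed here.

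SCID mice lack T and B cells of their own. CD45RBhi transfer gives them naive CD4 T cells, which expand in the gut and drive colitis together with recruited neutrophils and monocytes. IL-12 and IL-23, cytokines that myeloid cells make and that promote Th1 and Th17 responses, have the IL-12p40 subunit in common, so the antibody blocks both. Of the 11 proteins measured, CD3 is part of the T cell receptor complex and CD4 is the helper T cell co-receptor. CD90.2 marks T cells and innate lymphoid cells (ILCs), and CD127 is the IL-7 receptor alpha chain. KLRG1 is an inhibitory receptor of effector T cells and of a class of ILCs, and CD103 is the integrin chain that binds E-cadherin on epithelium. CD11b and CD11c are integrin chains of myeloid and dendritic cells, CD64 is an Fc receptor of macrophages, Ly-6C marks inflammatory monocytes and Ly-6G marks neutrophils.

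Antibody counts were whole numbers per barcode, and 12914066 to 28723452 were held per library. After cells with fewer than 50 counts and the top 1% were left out, 16735, 12604, 20977 and 12555 cells of weeks 0 to 3 and 12437 treated cells remained, with medians of 1090, 576.5, 889, 1403 and 1566 counts per cell. Each count was turned into a centred log ratio (CLR), that is ln(count + 1) less the average of this quantity over all 11 antibodies of the cell. Cells were called positive or negative by a threshold per antibody and sorted into 9 exclusive phenotypes, named by their proteins. CD127 and Ly-6C did not separate into 2 modes, so their calls are less certain. The treated library shared 55, 31, 75 and 44 barcodes with weeks 0, 1, 2 and 3. Week 0 and week 2 held more barcodes than cells loaded, and doublets were not removed. The panel does not measure IL-12p40 or CD45, so it checks neither the treatment nor the sort. It does check the hosts: 1 of 16735 week 0 cells was CD3+CD4+, although that library too carries the transfer label. Every group was 1 library, so no test was possible. The intervals given are exact Clopper-Pearson 95% intervals and cover counting error only, and differences between animals were not measured.

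By its make-up over all cells, the treated infiltrate lay nearest to week 3 among the early weeks, and both were mostly T cells. CD3+CD4+ cells made up 0.00598%, 4.77%, 39.2% and 59.1% of cells at weeks 0, 1, 2 and 3, and 65.8% (64.9 to 66.6) of treated cells. The treated share was thus above all 4 early weeks and 1.11 times that of week 3. Total variation distance, the share of cells that would have to change phenotype to match, was 69.7% to week 0, 63.2% to week 1, 30.5% to week 2 and 18.2% to week 3. For scale, weeks 2 and 3 lay 23.5% apart and weeks 0 and 1 lay 13.7% apart. A weighted blend of the 4 early weeks came no closer than week 3 alone, which took 100% of the weight. The nearest week was week 3 under all 10 other settings tried for this measure, among them leaving out week 2, which could not change it. Untreated weeks 5 and 6 were slightly nearer by this distance, at 17.4% and 16.7%. Split further into 15 subclasses by CD103, KLRG1, CD11b and CD4, the cells lay 69.7%, 63.2%, 33.8% and 28.0% from weeks 0, 1, 2 and 3. Untreated week 5 was slightly nearer than any of these, at 26.6%. By the count of subclasses that differed by 1.5-fold or more, week 2 was the closest, with 7 of 15 (46.7%), against 12 (80.0%) for week 3 and 14 (93.3%) each for weeks 0 and 1.

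**Figure D1:**
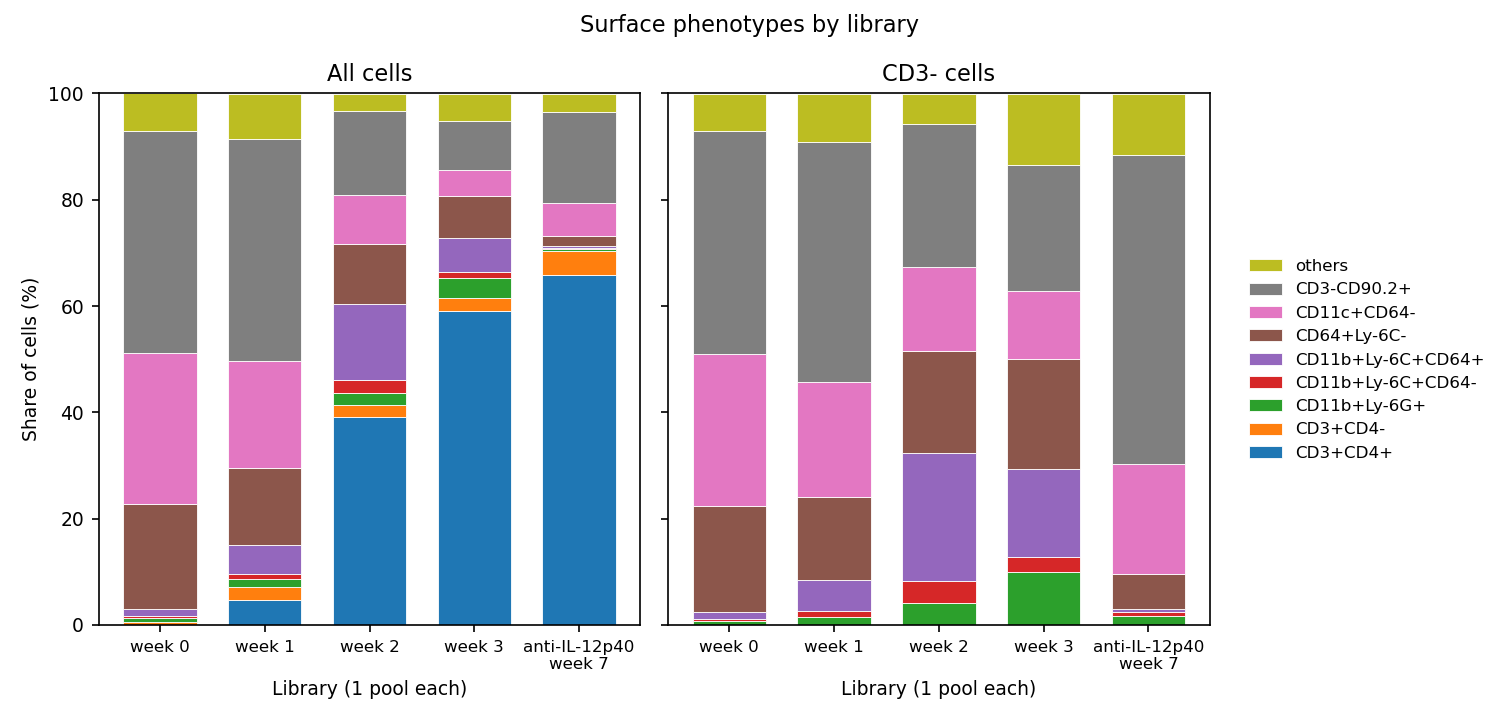
Share of cells (%) in each of 9 surface phenotypes, for all cells (left) and for CD3- cells (right), in the untreated week 0 to 3 libraries and the anti-IL-12p40 week 7 library, 1 pool each. CD3+CD4+ cells fill 59.1% of week 3 and 65.8% of the treated bar, while among CD3- cells the treated bar is 58.1% CD3-CD90.2+.

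Without the T cells the placement moved to an earlier time. Over the 7 phenotypes of CD3- cells, the treated library lay 21.9% from week 0, 15.4% from week 1, 42.0% from week 2 and 42.4% from week 3. On the same scale weeks 0 and 1 lay 11.3% apart and weeks 2 and 3 lay 15.2% apart, so the treated CD3- cells were about as far from week 1 as weeks 2 and 3 were from each other. Against week 1, 2 of the 7 shares (28.6%) differed by 1.5-fold or more, against 5 (71.4%) for week 0 and 6 (85.7%) each for weeks 2 and 3. The 2 were both CD64+ phenotypes. Untreated weeks 4, 5 and 6 lay further off than week 1, at 63.4%, 42.8% and 31.7%. Week 0 took the place of week 1 when all libraries were scaled to 1 median depth or when the Aitchison distance, a distance of log ratios, was used. Thresholds fitted in each library separately gave week 3, and they also called 57.1% of week 0 cells CD3+CD4- in hosts that lack T cells.

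**Figure D2:**
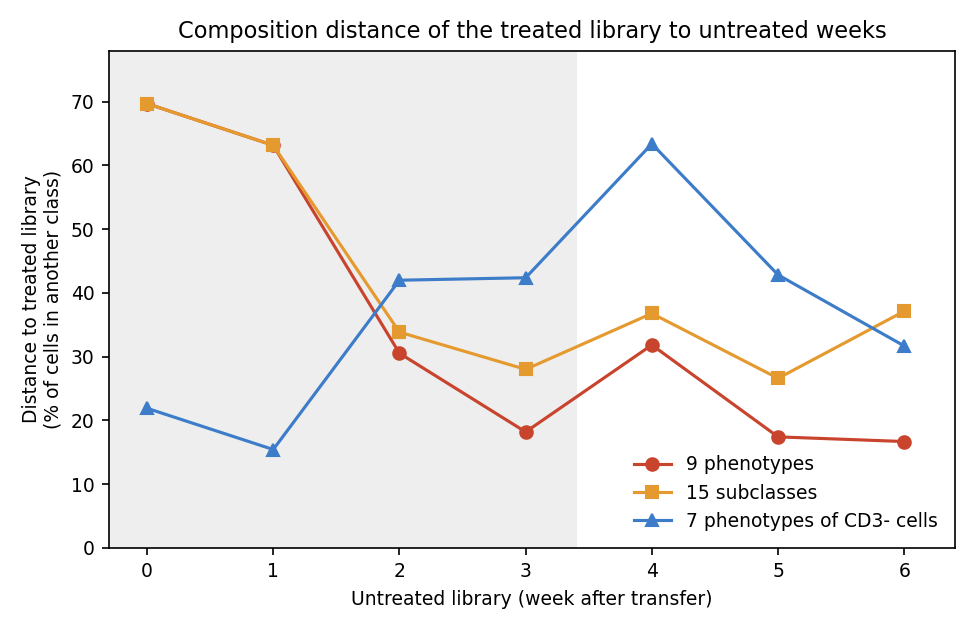
Total variation distance (% of cells) between the treated library and each untreated library of weeks 0 to 6, for 9 phenotypes, 15 subclasses and the 7 phenotypes of CD3- cells; the shaded area marks weeks 0 to 3. The lines for all cells reach their lowest early value at week 3, at 18.2% and 28.0%, and the line for CD3- cells at week 1, at 15.4%.

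Of the 20 shares over all cells (11 proteins and 9 phenotypes), 7 (35.0%) lay outside the early course, 1 higher (5.00%) and 6 lower (30.0%). Outside means beyond all of weeks 0 to 3, at least 1.5-fold from the nearest of them, with no overlap of intervals. Against single weeks, 15 (75.0%), 16 (80.0%), 16 (80.0%) and 14 (70.0%) of the 20 differed from weeks 0, 1, 2 and 3 by at least 1.5-fold. Myeloid proteins made up most of the 7. CD11b was positive on 29.1%, 28.0%, 38.1% and 23.2% of cells at weeks 0 to 3 and on 5.20% (4.82 to 5.61) of treated cells. CD64 was positive on 21.2%, 21.2%, 29.0% and 17.3% of cells and on 2.94% (2.65 to 3.26) of treated cells. CD11c was positive on 39.3%, 30.0%, 29.9% and 14.6% of cells and on 7.72% (7.26 to 8.20) of treated cells. For each of these the treated library stood below every early week, at 0.224, 0.170 and 0.528 times the nearest, which was week 3 in all 3 cases. CD11b and CD11c remained below all early weeks under all 6 other settings, and CD64 under 5, since thresholds fitted in each library put it at 37.6%. These are shares of all cells, which a larger T cell share can dilute, and they were not computed among CD3- cells. Ly-6C was positive on 2.53%, 8.01%, 30.8% and 10.7% of early cells and on 1.46% of treated cells. Thresholds fitted in each library put the treated share at 37.9%, above every early week. Scaled to 1 median depth it was 0.798 times week 1, so the call held in neither setting.

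Of the lymphoid proteins, KLRG1, CD127 and CD103 lay within the early range, and CD3, CD4 and CD90.2 lay above it by less than 1.5-fold. CD3 was positive on 0.598%, 7.14%, 41.3% and 61.5% of cells at weeks 0 to 3 and on 70.3% of treated cells, and CD4 on 11.7%, 13.4%, 46.4% and 63.3% and on 69.7%. CD90.2 was positive on 66.1%, 63.8%, 68.3% and 67.1% of early cells and on 91.7% of treated cells. The lower mode of CD90.2 was high in the treated library. It stood at a CLR of 2.38, above the common threshold of 2.04, against 1.13, 0.81, 0.68 and 0.48 at weeks 0 to 3. Treated cells of the lower mode can therefore be called CD90.2+, which touches every share of CD90.2+ cells given here. Neutrophils should lack CD90.2. It was called on 48.0%, 36.8%, 23.5% and 15.0% of CD11b+Ly-6G+ cells at weeks 0 to 3. In the treated library it was called on 27.9% (17.1 to 40.8) of 61 such cells, within the early range. Whether the treated lower mode is background was not tested. KLRG1 stood at 29.3%, 32.8%, 27.2% and 26.7%, and at 26.7% in the treated library, while untreated weeks 4 to 6 held 7.94%, 8.23% and 7.39%. CD127 stood at 67.8%, 65.4%, 28.7% and 40.1%, and at 64.5% in the treated library. CD103 was positive on 28.8%, 23.2%, 7.63% and 9.48% of cells and on 28.3% of treated cells, the level of week 0. The cells behind it were not the same, since at week 0 no CD103+ cell was CD3+CD4+, while CD103+ CD3+CD4+ cells alone were 20.9% of the treated library. Cells outside the 8 named phenotypes were 7.01%, 8.49%, 3.35% and 5.19% of early cells and 3.43% of treated cells.

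Neutrophils and monocytes enter the inflamed colon from blood. At the main settings their phenotypes were scarcer over all cells in the treated library than in any early week. Among CD3- cells they stood at or below the level of week 1. CD11b+Ly-6G+ cells, the neutrophil phenotype, were 0.747%, 1.47%, 2.39% and 3.87% of cells at weeks 0 to 3, and 0.490% (0.375 to 0.630) of treated cells. This was below all 4 weeks, but its interval overlapped that of week 0 (0.622 to 0.889). Of CD3- cells alone, which a larger T cell share does not dilute, it was 0.751%, 1.58%, 4.08% and 10.05% at weeks 0 to 3 and 1.65% (1.27 to 2.12) in the treated library, 1.04 times week 1 and 2.20 times week 0. With thresholds fitted in each library it was 2.07% of all treated cells, within the early range. Of CD3- cells it was then 6.28%, against 2.11% at week 1. Scaled to 1 median depth it was 4.86% of CD3- cells, against 3.05% at week 1. CD11b+Ly-6C+CD64+ cells, which combine monocyte and macrophage proteins, were 1.32%, 5.49%, 14.2% and 6.38% of early cells. In the treated library they were 0.201% (0.130 to 0.297), or 25 cells, 0.152 times the week 0 share and outside the early course. Of CD3- cells they were 1.33%, 5.91%, 24.2% and 16.6% at the early weeks and 0.677% in the treated library, 0.509 times week 0. With thresholds fitted in each library the share of all cells was 1.02%, 1.31 times week 0 and within the early range, which ends the call. CD11b+Ly-6C+CD64- cells, the monocyte phenotype, were 0.365%, 0.928%, 2.43% and 1.07% of early cells and 0.225% of treated cells, with an interval that overlapped week 0 alone. Of CD3- cells they were 0.367%, 1.00%, 4.14% and 2.77%, and 0.758% of treated cells, 2.07 times week 0 and 0.758 times week 1.

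Resident macrophages are numerous in healthy colon, and the macrophage phenotype was scarcer in the treated library than in any early week before depth was made equal. CD64+Ly-6C- cells were 19.7%, 14.5%, 11.2% and 7.96% of cells at weeks 0 to 3 and 1.94% (1.70 to 2.20) of treated cells. Of CD3- cells the phenotype was 19.9%, 15.6%, 19.2% and 20.7% of early cells and 6.52% of treated cells. When each cell was thinned to 150 counts, with 15 to 1087 shallower cells left out per library, the phenotype was 3.57% of treated cells, 0.959 times week 2, and with libraries scaled to 1 median depth it was 0.314%, above week 3. Of CD3- cells it was 22.1%, 15.6%, 6.20% and 10.05% at the early weeks and 10.9% in the treated library when thinned, within the early range. This share is therefore not shown to lie outside the early course at equal depth. The gate also leaves out Ly-6C+ cells. When thinned, Ly-6C was called on 28.5%, 42.4%, 76.4% and 61.3% of early cells and 8.14% of treated cells. The part of these calls in the change was not tested. CD64 over all cells, whatever the Ly-6C call, was 26.3%, 25.5%, 28.9% and 21.0% when thinned, against 7.95% of treated cells. The 4 CD11b or CD64 phenotypes together, a sum chosen after their values were seen, were 22.2%, 22.4%, 30.3% and 19.3% of early cells and 2.85% of treated cells. Of CD3- cells they were 22.3%, 24.1%, 51.6% and 50.04% at the early weeks and 9.61% in the treated library.

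**Figure D3:**
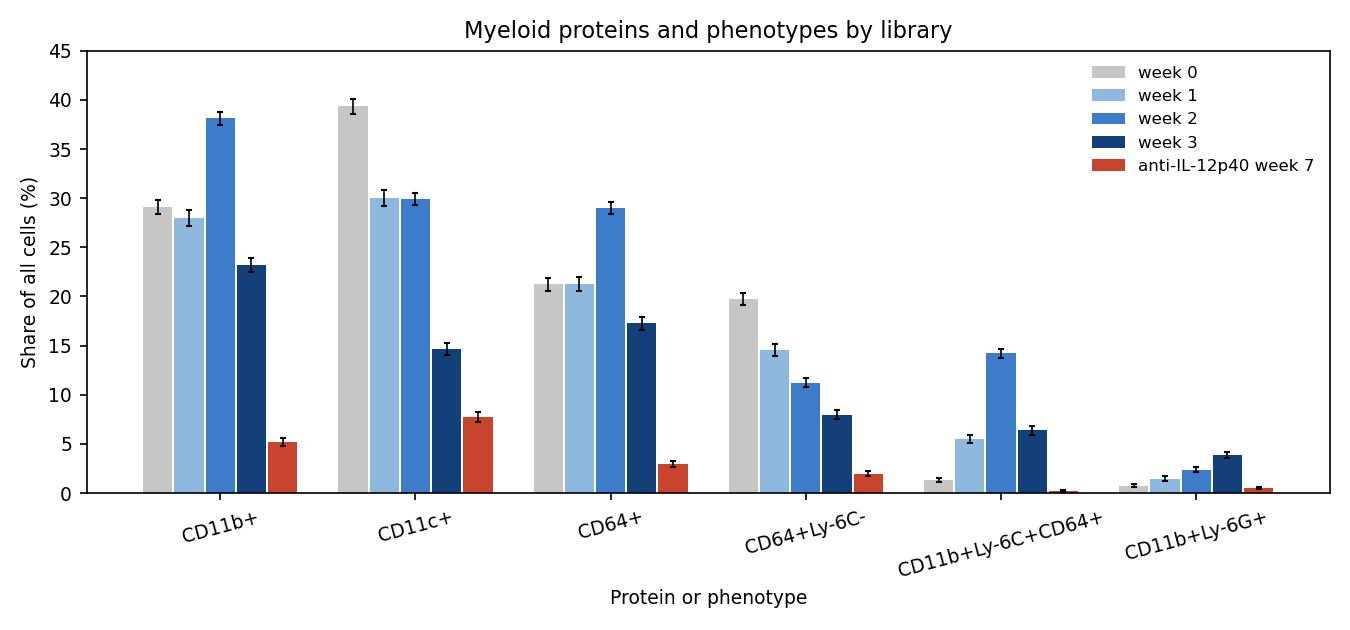
Share of all cells (%) positive for CD11b, CD11c or CD64, or of a CD64+Ly-6C-, CD11b+Ly-6C+CD64+ or CD11b+Ly-6G+ phenotype, in the 5 libraries; bars are 1 pool each and lines are exact 95% counting intervals. The treated bar is the lowest in each set, from 7.72% for CD11c to 0.201% for CD11b+Ly-6C+CD64+ cells.

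The few treated CD64+Ly-6C- cells carried less CD64 itself and less CD11b and CD11c. Median CD64 was 126, 64, 60 and 181 counts at weeks 0 to 3 and 22 in the treated library. The median CLR was 0.90, 0.89, 1.14 and 1.25 against 0.42, nearer to the threshold of 0.105. The part of borderline CD64 calls in the values below was not tested. CD11b was positive on 90.7%, 89.9%, 94.7% and 87.6% of this phenotype at weeks 0 to 3, and on 49.8% (43.3 to 56.3) of the 241 treated cells. CD11c was positive on 50.1%, 50.7%, 86.8% and 82.0%, and on 15.4% (11.05 to 20.5) of treated cells. Both were below all early weeks, and when thinned they were too, at 24.7% against 75.3% to 92.0% for CD11b and 13.3% against 42.5% to 83.6% for CD11c. With thresholds fitted in each library CD11c was 31.9% against 28.8% at week 0, within the early range, and scaling to 1 median depth left 39 treated cells, too few for a value. CD90.2, a lymphocyte protein, was positive on 53.2%, 44.3%, 20.4% and 8.41% of these cells and on 46.9% of treated ones, and when thinned on 60.1%, 54.3%, 39.9% and 23.5% against 81.9%. A lymphocyte protein was thus common on the treated cells of this phenotype, above every early week at equal depth. Among CD90.2- cells of the phenotype, 128 in the treated library, CD11b was 96.6%, 95.5%, 97.9% and 90.9% against 71.1%. CD11c was 71.7%, 68.7%, 92.4% and 86.3% against 19.5% on those cells. Of 188 treated CD11b+CD64+ cells 22.3% were CD3+, against 0.0617%, 1.94%, 7.51% and 3.56% in the early weeks, and the part of doublets and free antibody in these values was not tested. CD4 was positive on 31.7%, 18.3%, 20.6% and 7.81% of early cells of the phenotype and on 12.4% of treated ones, within the early range. CD103 was positive on 8.50%, 8.03%, 2.67% and 1.80%, and on 7.05% of treated ones.

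The second place where the treated library resembled no early week was CD103 on CD4 T cells. CD103 was positive on 7.82%, 4.77% and 7.53% of CD3+CD4+ cells at weeks 1, 2 and 3, among 601, 8218 and 7421 cells. In the treated library it was positive on 31.8% (30.8 to 32.8) of 8179 cells, 4.07 times the week 1 share. The intervals did not overlap, and week 0 was left out because it held 1 such cell. Thinned to 150 counts, the shares were 5.98%, 3.30% and 6.39% against 24.3%. Neutrophils are not known for CD103, and 11.4%, 1.39% and 1.85% of CD11b+Ly-6G+ cells at weeks 1 to 3 and 3.28% (2 of 61 cells) in the treated library were called positive. Their medians were 2227, 1404, 4552.5 and 2482 counts per cell, against 1046, 1015, 1411 and 1915 for CD3+CD4+ cells. The treated T cell share stood above this background (upper bound 11.3%), while the week 1 share did not and is read as background. Over all cells, CD103+ CD4 T cells were 0.373%, 1.87% and 4.45% at weeks 1 to 3 and 20.9% of treated cells, 4.70 times week 3 and outside the early course. Scaled to 1 median depth, 33.6% of week 0's few CD3+CD4+ calls were CD103+, and the treated 31.0% was above weeks 1 to 3 only. In untreated weeks 4, 5 and 6 the share of CD3+CD4+ cells with CD103 was 13.1%, 22.8% and 11.6%, also below the treated value.

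KLRG1 on the same cells lay within the early course. It was positive on 8.99%, 30.4% and 30.6% of CD3+CD4+ cells at weeks 1, 2 and 3 and on 20.7% (19.9 to 21.6) of treated cells, between week 1 and week 2. Thinned, the values were 8.55%, 25.4% and 27.5% against 19.0%, in the same order. On CD11b+Ly-6G+ cells KLRG1 was called on 11.9%, 8.17%, 3.70% and 6.56%, so the week 1 share is read as background and the other 3 are not. The treated CD4 T cells thus split differently from any early week: 31.8% were CD103+, 12.9% KLRG1+CD103- and 55.3% neither. At week 3 these were 7.53%, 30.0% and 62.5%, and at week 1 they were 7.82%, 8.32% and 83.9%. Within CD103+ cells KLRG1 was positive on 8.51%, 23.2% and 7.69% at weeks 1 to 3 and on 24.8% of treated cells.

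CD127, whose calls are uncertain, was positive on 46.9%, 25.7% and 38.3% of CD3+CD4+ cells at weeks 1 to 3 and on 60.3% of treated cells. Thinned, it was 41.2%, 23.8% and 38.0% against 45.6%. The treated share was the highest in both readings, by 1.5-fold in neither. CD90.2 was positive on 99.0%, 99.4% and 90.4% of these cells and on 99.3% of treated ones, with median counts of 653, 556, 774 and 1506. The treated level was the highest, but so was the lower mode of CD90.2 in that library, as given above. Ly-6C, a protein also found on activated and memory T cells, had median counts of 68, 167 and 255 on CD3+CD4+ cells at weeks 1 to 3 and 61 on treated cells. Its lower mode too was the lowest in the treated library, at a CLR of 1.36 against 1.95 to 2.62. The part of free antibody in the CD90.2 and Ly-6C levels was not tested.

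**Figure D4:**
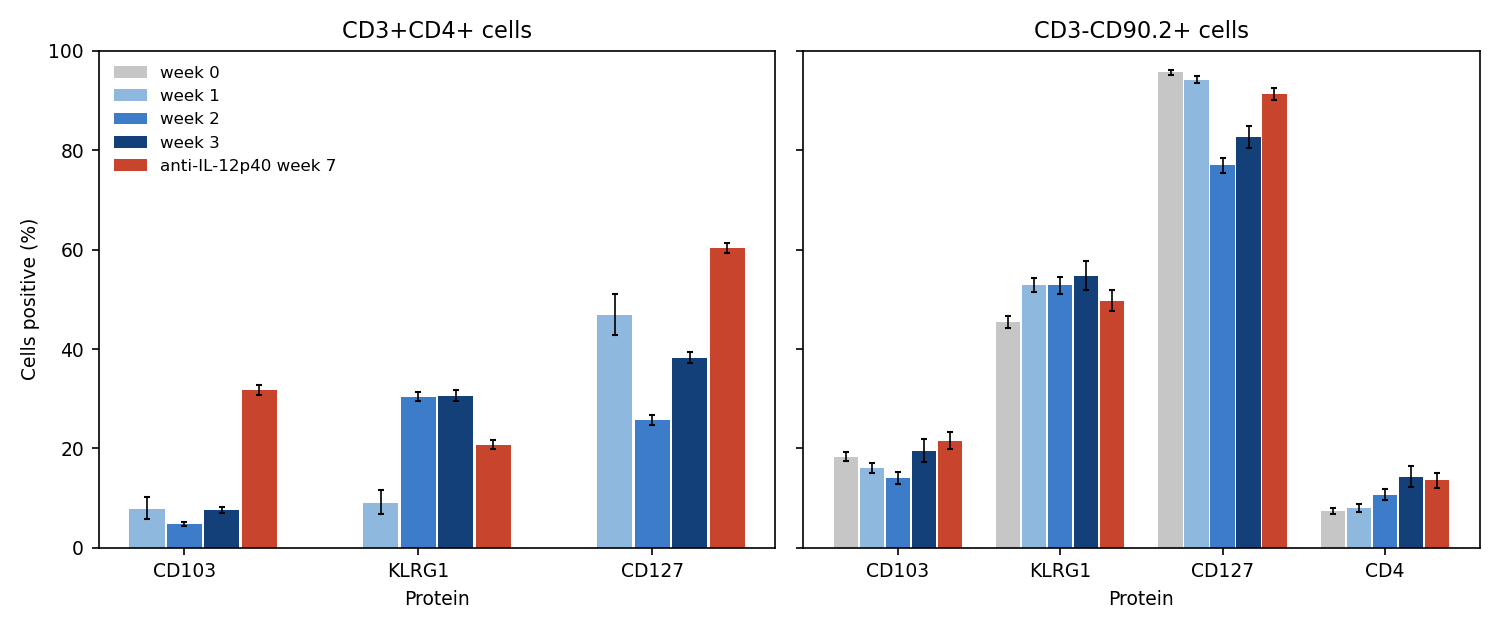
Cells positive (%) for CD103, KLRG1 and CD127 within CD3+CD4+ cells (left; week 0 held 1 such cell and is not shown) and for CD103, KLRG1, CD127 and CD4 within CD3-CD90.2+ cells (right); bars are 1 pool each, lines are exact 95% counting intervals. CD103 on CD3+CD4+ cells stands at 31.8% in the treated library against 4.77% to 7.82%, while on CD3-CD90.2+ cells the 5 libraries lie between 14.0% and 21.5%.

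CD3-CD90.2+ cells, which hold the ILC phenotype, carried KLRG1 and CD127 at shares within the early range. They were 41.7%, 41.9%, 15.8% and 9.14% of all cells at weeks 0 to 3 and 17.3% of treated cells, near week 2. Of CD3- cells they were 42.0%, 45.2%, 26.9% and 23.7%, and 58.1% of treated cells, above every early week, though by less than 1.5-fold. With thresholds fitted in each library the treated share was 20.6%, below every early week. The part of the high CD90.2 lower mode in the 58.1% was not tested. KLRG1 was positive on 45.4%, 52.9%, 52.8% and 54.7% of them and on 49.7% (47.6 to 51.9) in the treated library. CD127, a defining ILC protein, was positive on 95.6%, 94.2%, 77.0% and 82.7%, and on 91.4% of treated cells, between weeks 0 and 1 and weeks 2 and 3. The later untreated weeks did not look like this: in weeks 4, 5 and 6 KLRG1 was positive on 31.0%, 16.5% and 10.6% of the phenotype.

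CD4 on CD3-CD90.2+ cells can mark a T cell whose CD3 fell below the threshold as well as a CD4+ ILC. It was positive on 7.47%, 8.02%, 10.7% and 14.3% at weeks 0 to 3 and on 13.6% in the treated library, near week 3. In weeks 4, 5 and 6 it was positive on 46.7%, 64.1% and 91.5%. Thinned, the early shares were 8.35%, 9.13%, 23.8% and 35.4% and the treated share 39.1%, so this count depends on depth. As a share of CD3- cells, the CD4+ subclass was 3.14%, 3.62%, 2.88% and 3.39% at weeks 0 to 3 and 7.88% (7.03 to 8.79) in the treated library, 2.17 times week 1 and outside the early course. As a share of all cells it was 3.12%, 3.36%, 1.69% and 1.31% at weeks 0 to 3 and 2.34% in the treated library, within the early range. The CD4- cells split by KLRG1 gave the KLRG1+ subclass 18.6%, 21.8%, 7.81% and 4.64% of all cells and 8.03% of treated cells. The KLRG1- subclass was 20.0%, 16.7%, 6.30% and 3.19%, and 6.89% of treated cells. As shares of all cells both subclasses stood nearest to week 2. Of CD3- cells the KLRG1+ subclass was 27.04% in the treated library, against 23.5% at week 1, the highest early share. The KLRG1- subclass was 23.2% of treated CD3- cells, against 20.1% at week 0, the highest early share. Of CD3- cells both subclasses thus stood above every early week, by less than 1.5-fold. CD103 was positive on 18.3%, 16.0%, 14.0% and 19.4% of CD3-CD90.2+ cells and on 21.5% of treated ones, 1.11 times week 3.

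Dendritic cells take up antigen in the lamina propria and prime T cells, and those with CD103 migrate to the draining lymph node. CD11c+CD64- cells, the dendritic phenotype, were 28.5%, 20.0%, 9.26% and 4.91% of cells at weeks 0 to 3 and 6.16% (5.74 to 6.60) of treated cells, between weeks 2 and 3. Of CD3- cells they were 28.6%, 21.6%, 15.8% and 12.7%, and 20.7% of treated cells, next to week 1. CD103 was positive on 63.4%, 63.4%, 24.5% and 38.1% of the phenotype and on 40.3% (36.8 to 43.9) of treated cells. Here the treated library was like week 3 and unlike weeks 0 and 1, and on CD90.2- cells the order was the same, with 82.5%, 78.3%, 41.8% and 48.4% against 54.4%. CD11b was positive on 24.2%, 21.4%, 27.9% and 24.2%, and on 17.1% of treated cells. CD90.2 was positive on 39.98%, 32.4%, 59.4% and 33.3% of the phenotype and on 61.6% of treated cells. The part of the high CD90.2 lower mode in the treated value was not tested. CD4 on it was 4.47%, 6.34%, 15.8% and 10.7%, and 11.4% of treated cells. Ly-6C was 1.09%, 1.78%, 28.1% and 7.14%, and 5.48% of treated cells. The CD103+CD11b- subclass was 13.9%, 10.8%, 1.88% and 1.70% of all cells and 2.17% of treated cells. Of CD3- cells it was 14.0%, 11.6%, 3.21% and 4.43% at weeks 0 to 3 and 7.31% in the treated library. This was 0.629 times week 1 and 1.65 times week 3, between weeks 0 and 1 and weeks 2 and 3. The CD103+CD11b+ subclass was 4.12%, 1.91%, 0.381% and 0.167% of all cells, and 0.314% of treated cells. Of CD3- cells it was 4.14%, 2.06%, 0.650% and 0.434%, and 1.06% in the treated library, nearest to week 2.

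Of the 9 phenotypes, CD3+CD4- cells were the 1 whose share of all cells was higher than in the early course by the rule. They were 0.592%, 2.37%, 2.14% and 2.37% of cells at weeks 0 to 3 and 4.53% (4.18 to 4.92) of treated cells, 1.91 times week 3. Thinned to 150 counts the ratio to the nearest week was 1.03, so the difference was not detectable at equal depth. At weeks 0 and 1 these cells had medians of 181 and 186 counts, against 1090 and 576.5 in their whole libraries, and CD90.2 was positive on 31.3% and 49.5%, against 83.5% and 40.6% at weeks 2 and 3 and 83.0% in the treated library. KLRG1 was positive on 8.08%, 20.1%, 48.4% and 13.8%, and on 41.1% of treated cells. CD127 was positive on 82.8%, 83.9%, 23.9% and 47.7%, and on 64.2% of treated cells. CD103 was positive on 18.2%, 13.04%, 5.58% and 6.04%, and on 7.09% of treated cells, unlike on CD3+CD4+ cells. In hosts with no T cells at week 0 these calls do not name a cell type.

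On CD11b+Ly-6G+ cells CD64, which activated neutrophils gain, was positive on 18.4%, 48.6%, 40.8% and 39.7% at weeks 0 to 3 and on 1.64% of treated cells, 1 of 61. CD11c was positive on 45.6%, 33.0%, 40.8% and 17.9%, and on 19.7% of treated cells. CD64 lay below all early weeks, on few cells. Thinned, it was 10.6% (4.37 to 20.6) of 66 cells against 22.0% (14.6 to 31) at week 0, so the intervals overlapped and the call did not hold. Per-library thresholds put it at 54.9%, above every early week. Of the 24 protein shares within phenotypes on the set list, 4 (16.7%) lay outside the early course. The 1 that was higher (4.17%) was CD103 on CD3+CD4+ cells. The 3 that were lower (12.5%) were CD11b and CD11c on CD64+Ly-6C- cells and CD64 on CD11b+Ly-6G+ cells. Off the list, CD11b and CD64 on CD3+CD4+ cells and CD11c on CD3+CD4- cells were also lower by the rule.

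Levels of the proteins that a gate did not use, compared by the mean absolute difference of median CLR, placed 3 of 6 phenotypes at week 1. On CD3+CD4+ cells it was 0.34 to week 1, 0.59 to week 2 and 0.59 to week 3, while the early weeks differed among themselves by 0.31 to 0.39. To untreated weeks 4, 5 and 6 it was 0.64, 0.45 and 0.42. By this mean, treated T cells were thus as far from week 1 as early weeks were from each other, and further from weeks 2 and 3. Yet 6 of the 9 medians lay beyond all of weeks 1 to 3. CD90.2, CD127 and CD103 were higher, and CD11b, CD11c and Ly-6C were lower. On CD3-CD90.2+ cells it was 0.26, 0.24, 0.41 and 0.45 to weeks 0 to 3, and 0.53, 0.95 and 0.88 to weeks 4 to 6. On CD64+Ly-6C- cells it was 0.57, 0.48, 0.87 and 0.82. The nearest was week 1 in these 3 phenotypes. On CD3-CD90.2+ cells 3 of 6 medians and on CD64+Ly-6C- cells 4 of 8 lay beyond all early weeks. On CD11c+CD64- cells it was 0.72, 0.72, 0.44 and 0.55, nearest to week 2. On CD3+CD4- cells it was 0.70, 0.58, 0.49 and 0.68, also nearest to week 2. On CD11b+Ly-6G+ cells it was 0.63, 0.49, 0.44 and 0.26, nearest to week 3 of the early weeks, but 0.14 to untreated week 6. In the other 5 phenotypes no later week up to week 6 that held enough cells was nearer than the nearest early week.

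**Figure D5:**
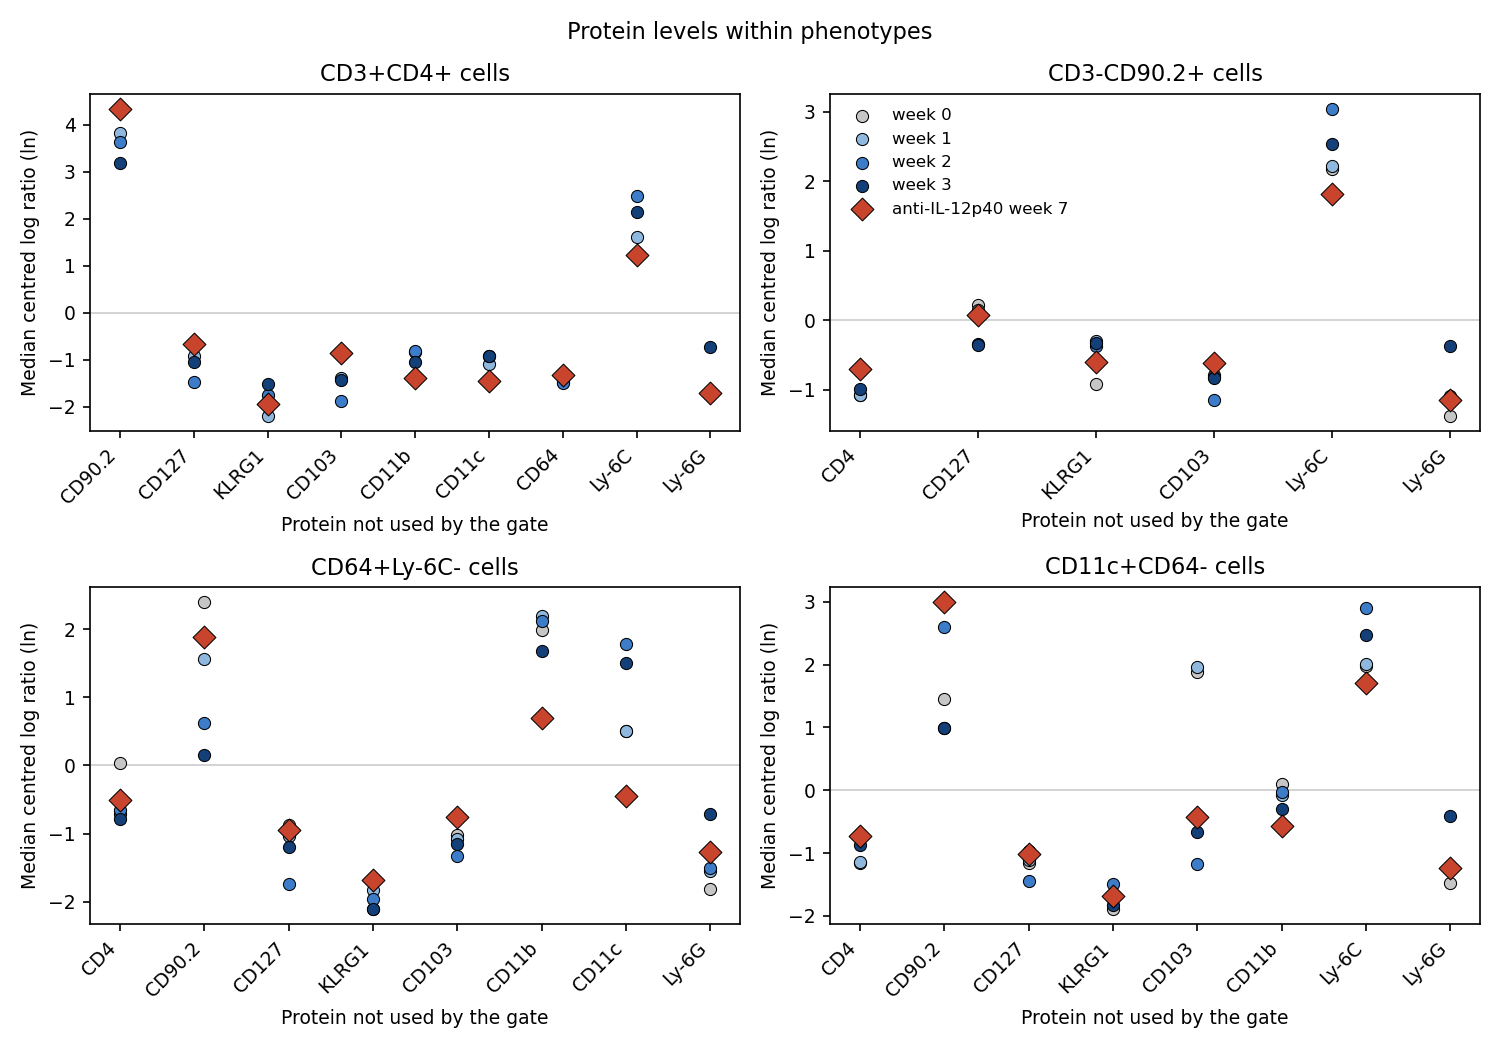
Median CLR (natural log units) of each protein that the gate did not use, within CD3+CD4+, CD3-CD90.2+, CD64+Ly-6C- and CD11c+CD64- cells; circles are the untreated weeks 0 to 3 and red diamonds the treated library, 1 pool each. The diamonds stand highest for CD90.2 on CD3+CD4+ cells and lowest for CD11b and CD11c on CD64+Ly-6C- cells.

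These level placements depended on the processing, unlike the T cell share. Each library's own background level was taken as the lower mode of each protein. When it was subtracted, the nearest week on CD3+CD4+ and CD3-CD90.2+ cells was week 2, and on CD64+Ly-6C- and CD11c+CD64- cells week 3. With the share of positive cells in place of the median, CD3+CD4+ cells were nearest to week 3.

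Single cells were also placed by their neighbours. Each treated cell's 20 nearest cells in the 11 CLR values were drawn from equal numbers of cells of each early week. Of these neighbours 11.5%, 35.4%, 22.4% and 30.7% came from weeks 0, 1, 2 and 3, against 25% each if spread evenly. Within the gated phenotypes, 65.3% for treated CD3+CD4+ cells came from week 1, 16.4% from week 2 and 18.4% from week 3, against 33.3% each if spread evenly over these 3 weeks. For CD3-CD90.2+ cells 34.1%, 42.2%, 7.32% and 16.4% came from weeks 0 to 3. Week 1 held most neighbours of both lymphoid classes, but with library backgrounds subtracted week 3 did, with 61.3% and 52.0%, and thinning moved CD3-CD90.2+ cells to week 0, with 43.4%. For CD11c+CD64- cells the shares were 27.1%, 31.0%, 16.0% and 25.8%, with no week far ahead. Treated cells lay 1.11, 1.19, 1.01 and 1.12 times as far from their neighbours as cells of weeks 0, 1, 2 and 3 did when each was left out of the reference. With library backgrounds subtracted, 59.3% of all neighbours came from week 3.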

How the data were processed

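Surface protein libraries of 9 pooled samples were used. The authors deposited raw counts of 11 antibodies for every barcode, without normalization. Cell Ranger 6.0.2, Seurat 4.1.1 and mm10 are listed in the submitters' processing notes, and their roles are not stated. No source used here states the rule that chose the barcodes. Cells with at least 50 counts were kept, without the top 1% of each library, and no doublet caller was run. Positivity thresholds came from a 2-component Gaussian mixture per antibody on 2000 cells of each of the 9 libraries (scikit-learn 1.9.0). Ashman's D, which measures the separation of the components, was below 2 for CD127 and Ly-6C. A phenotype needed 50 treated cells for its levels, and an early week 50 such cells to be compared. All antibodies, all phenotypes and a set list of proteins within phenotypes are named, and subclasses are named where they belong to a named phenotype. Python 3.11.15, numpy 2.4.6, scipy 1.17.1 and pandas 2.3.3 were used. The placement steps were tried on simulated libraries drawn from single early weeks, which does not test a library unlike all of them. The members, the lists and the settings were chosen with earlier results of these data known. Settings tried in addition were another scaling, thinning to 150 counts, other thresholds, count filters, distances and reference weeks. Leaving out week 1 or week 2, leaving out Ly-6C with Ly-6G, the 11 subclasses of CD3- cells and CD90.2- cells alone were chosen after seeing the data.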

Additional observations from a re-analysis of the deposited data

How the results depend on the processing

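Each value is 1 library against 1, so no replicate could be left out. No paired analysis was possible because each group is 1 library. Of 114 other settings over 12 results, 77 kept the week or count and 37 did not. Some of these outcomes were fixed in advance. Leaving out the nearest week had to move a result, and leaving out another week could not. The cause of the other moves was not tested. The 9 phenotypes stayed nearest to week 3 in 10 of 10, among them leaving out week 2, which could not move them. The 15 subclasses stayed there in 8 of 8 and the blend in 7 of 7. CD3- composition moved from week 1 to week 0 with scaled counts, the Aitchison distance or week 1 left out, and to week 3 with thresholds per library. The count of shares outside the early course was 4 in place of 7 with thresholds per library and with a ratio of 2. Most neighbours came from week 3 with 50 neighbours or subtracted backgrounds, and from week 2 without CD127 and Ly-6C or without Ly-6C and Ly-6G. Levels on CD3+CD4+ cells moved from week 1 to week 2 (scaled counts, subtracted backgrounds) or week 3 (percent positive, week 1 left out). Levels on CD3-CD90.2+ cells moved from week 1 to week 0 (scaled, thinned, week 1 left out) or week 2 (subtracted backgrounds). Levels on CD64+Ly-6C- cells moved from week 1 to week 0 (thresholds per library or on 5 libraries, thinned, means, week 1 left out) or week 3 (subtracted backgrounds); scaled counts left too few treated cells. Levels on CD11c+CD64- cells moved from week 2 to week 3 (scaled, subtracted backgrounds, percent positive, CD90.2- cells) or week 1 (means). Levels on CD11b+Ly-6G+ cells moved from week 3 to week 0 (scaled, thresholds per library) or week 1 (thresholds on 5 libraries). Levels on CD3+CD4- cells moved from week 2 to week 1 (scaled, at least 100 counts, percent positive), week 0 (thinned) or week 3 (subtracted backgrounds). Few cells limit the neutrophil and monocyte phenotypes, which rest on 61, 28 and 25 treated cells. Thinning ended the calls on CD64+Ly-6C- and CD3+CD4- shares, with ratios of 0.959 and 1.03 to the nearest week.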
